A study of Homo sapiens with 8 samples.

Results

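Matrix metalloproteinases (MMPs) are zinc-dependent proteases that cut collagens, elastin and other proteins of the extracellular matrix. Most are secreted as inactive precursors, and tissue inhibitors of metalloproteinases (TIMPs) block the active enzymes by binding their catalytic site. The values described here are those of 8 MMP genes (MMP1, MMP2, MMP3, MMP9, MMP10, MMP12, MMP13 and MMP14) and 2 TIMP genes (TIMP1 and TIMP3). They were read by 18 probe sets, every one that the platform annotation assigned to these genes, out of 54675 probe sets on the array. The 10 genes belong to 19775 genes with a probe set of their own. They were chosen with dexrazoxane results of these arrays known, in which MMP12 and MMP3 were among the genes higher than with vehicle, so every dexrazoxane difference of a member, and whether it was called, is given as a description that supports nothing.

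All arrays carried RNA of HTETOP cells, made from the human fibrosarcoma line HT1080, whose TOP2A gene (topoisomerase II alpha) answers to tetracycline, so the vehicle cells carry that control too. Doxycycline at 1 µg/ml, which silences TOP2A in this line, was compared with its vehicle on 1 array each. Dexrazoxane at 100 µM, a bisdioxopiperazine inhibitor of both topoisomerase II enzymes, was compared with its own vehicle on 3 arrays each, all at 24 h. Each array held RNA pooled from 3 passages, and the source of the numbered arrays (1 culture or several) is not in the labels, so the spread between them may be technical.

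The log2 value of TOP2A was 11.98 with the doxycycline vehicle and 6.02 with doxycycline. It was 12.41, 12.55 and 12.40 on the dexrazoxane vehicle arrays and 11.20, 10.92 and 10.52 on the dexrazoxane arrays. Array medians were 4.82 and 4.81 in the doxycycline pair and 5.49 to 5.57 on the other 6 arrays, so levels of the 2 experiments are not on a common scale. Mesenchymal markers such as VIM and SPARC were bright, with list medians of 10.08 to 10.58 on the dexrazoxane and dexrazoxane vehicle arrays. The defining leukocyte gene PTPRC (3.84 ± 0.002, SD, n = 3 vehicle arrays) and the macrophage genes CD163 (4.41 ± 0.18) and MRC1 (3.41 ± 0.13) lay below the filter on dim genes, a mean log2 value of 4.83 over the 8 arrays. CSF1R and LAPTM5 lay above it, at 7.41 ± 0.20 and 8.12 ± 0.50; of 9 leukocyte genes on the array 4 passed, and the list's median ran from 4.25 to 5.12 with vehicle and from 4.39 to 5.17 with dexrazoxane. The arrays numbered 1 stood apart in both groups of the dexrazoxane experiment. Vehicle array 1 had 157 and 202 genes at least 2-fold away from vehicle arrays 2 and 3, which differed from each other in 12. For dexrazoxane array 1 these counts were 169 and 206, against 70 between arrays 2 and 3. Between the 2 arrays numbered 1 the count was 12.

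Of the MMP genes 5 lie side by side in band 11q22, in a cluster that runs over 435.2 kb from MMP7 to MMP13. In the GRCh38.p14 assembly of RefSeq MMP10 spans chr11:102770502-102780628, MMP1 chr11:102789919-102798160, MMP3 chr11:102835801-102843609, MMP12 chr11:102862736-102874982 and MMP13 chr11:102942995-102955732. The other members are on other chromosomes, MMP14 on chr14:22836585-22847758, MMP2 on chr16:55478830-55506691, MMP9 on chr20:46008908-46016561, TIMP3 on chr22:32801705-32863041 and TIMP1 on chrX:47582436-47586789. Which exons the probes match was not analysed here.

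MMP promoters are known for sites bound by AP-1, the dimer of FOS and JUN family proteins that answers to growth factors and stress, and by ETS factors. RefSeq promoter sequences (GRCh38.p14) were at hand for 4 of the 10 members, MMP10, MMP14, TIMP1 and TIMP3. They are printed for the 120 bases before the annotated start, 5′ to 3′ on the strand of the gene, because they place a dim cluster gene beside an inhibitor gene whose values were above vehicle in each pair. Capitals mark matches on either strand. The AP-1 motif was searched as TGANTCA. The TATA box was searched as TATAAA. The ETS site PEA3 was searched as AGGAAG. No match overlapped another.
MMP10, chr11:102780629-102780748, minus strand: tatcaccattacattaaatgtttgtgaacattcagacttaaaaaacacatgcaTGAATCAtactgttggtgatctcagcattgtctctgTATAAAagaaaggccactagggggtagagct
MMP14, chr14:22836465-22836584, plus strand: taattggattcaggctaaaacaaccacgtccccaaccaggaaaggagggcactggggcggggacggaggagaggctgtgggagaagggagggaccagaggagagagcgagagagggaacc
TIMP1, chrX:47582316-47582435, plus strand: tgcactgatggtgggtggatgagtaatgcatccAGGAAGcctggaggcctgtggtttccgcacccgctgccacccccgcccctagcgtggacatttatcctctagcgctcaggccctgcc
TIMP3, chr22:32801585-32801704, plus strand: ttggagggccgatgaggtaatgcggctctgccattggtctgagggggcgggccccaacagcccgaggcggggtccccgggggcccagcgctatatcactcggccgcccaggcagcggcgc
The MMP10 window held the AP-1 letters from 67 bases before the start and a TATA box from 31 bases before it, and the TIMP1 window held the PEA3 letters from 87 bases before it. Of all 35116 RefSeq promoters at hand 3.34% held the AP-1 letters, 5.63% the TATA box and 15.5% the PEA3 letters in the same window. A match describes letters in the window and does not show that a factor was bound there. Only exact letters were searched, so a window without a match may still hold a site. The TIMP1 window also reads tgagtaa, which is close to the AP-1 letters but no match to them.

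MMP12 encodes macrophage metalloelastase, which cuts elastin. Its log2 values were 4.34, 5.93 and 6.20 on vehicle arrays 1, 2 and 3 and 5.95, 6.78 and 7.83 on the dexrazoxane arrays of the same numbers. Every dexrazoxane array was above the vehicle array of its number, yet dexrazoxane array 1 lay below vehicle array 3, so the groups overlapped. The means were 5.49 ± 1.00 with vehicle and 6.86 ± 0.94 with dexrazoxane (SD, n = 3 each). The mean difference was 1.37 ± 0.45 (SD of 3 pairs), or 2.58-fold, made up of 1.62, 0.85 and 1.64. It was the highest mean difference among the 14731 genes past the filter, a rank that belongs to the values used to choose the gene. In bulk RNA, more cells with a transcript and more transcript per cell cannot be told apart.

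MMP3 encodes stromelysin-1, which cuts proteoglycans and laminin and activates other MMP precursors. It read 7.29, 8.86 and 9.09 with vehicle and 8.28, 9.50 and 9.71 with dexrazoxane. The groups overlapped here too, because dexrazoxane array 1 lay below vehicle arrays 2 and 3. Within pairs the differences were 0.98, 0.63 and 0.62, a mean of 0.74 ± 0.21 (SD of 3 pairs) or 1.68-fold. That mean ranked 23 of the 14731 genes.

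MMP1 encodes interstitial collagenase, which makes the first cut in fibrillar collagen. Its values were 11.79, 13.07 and 12.87 with vehicle and 12.11, 13.08 and 12.99 with dexrazoxane. The pairs differed by 0.32, 0.01 and 0.12, a mean of 0.15 ± 0.16 (SD of 3 pairs), about the size of its spread. Without the arrays numbered 1 the mean was 0.07.

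The other 2 cluster members were dim and failed the filter. MMP10, which encodes stromelysin-2, read 3.55, 3.68 and 3.44 with vehicle and 3.37, 3.61 and 3.92 with dexrazoxane, a difference of 0.08 ± 0.36. MMP13, which encodes collagenase-3, read 4.19, 4.21 and 4.30 against 4.26, 4.33 and 4.26, a difference of 0.05 ± 0.08. Such dim values give no information on a change in transcripts too scarce for these probes.

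**Figure D1:**
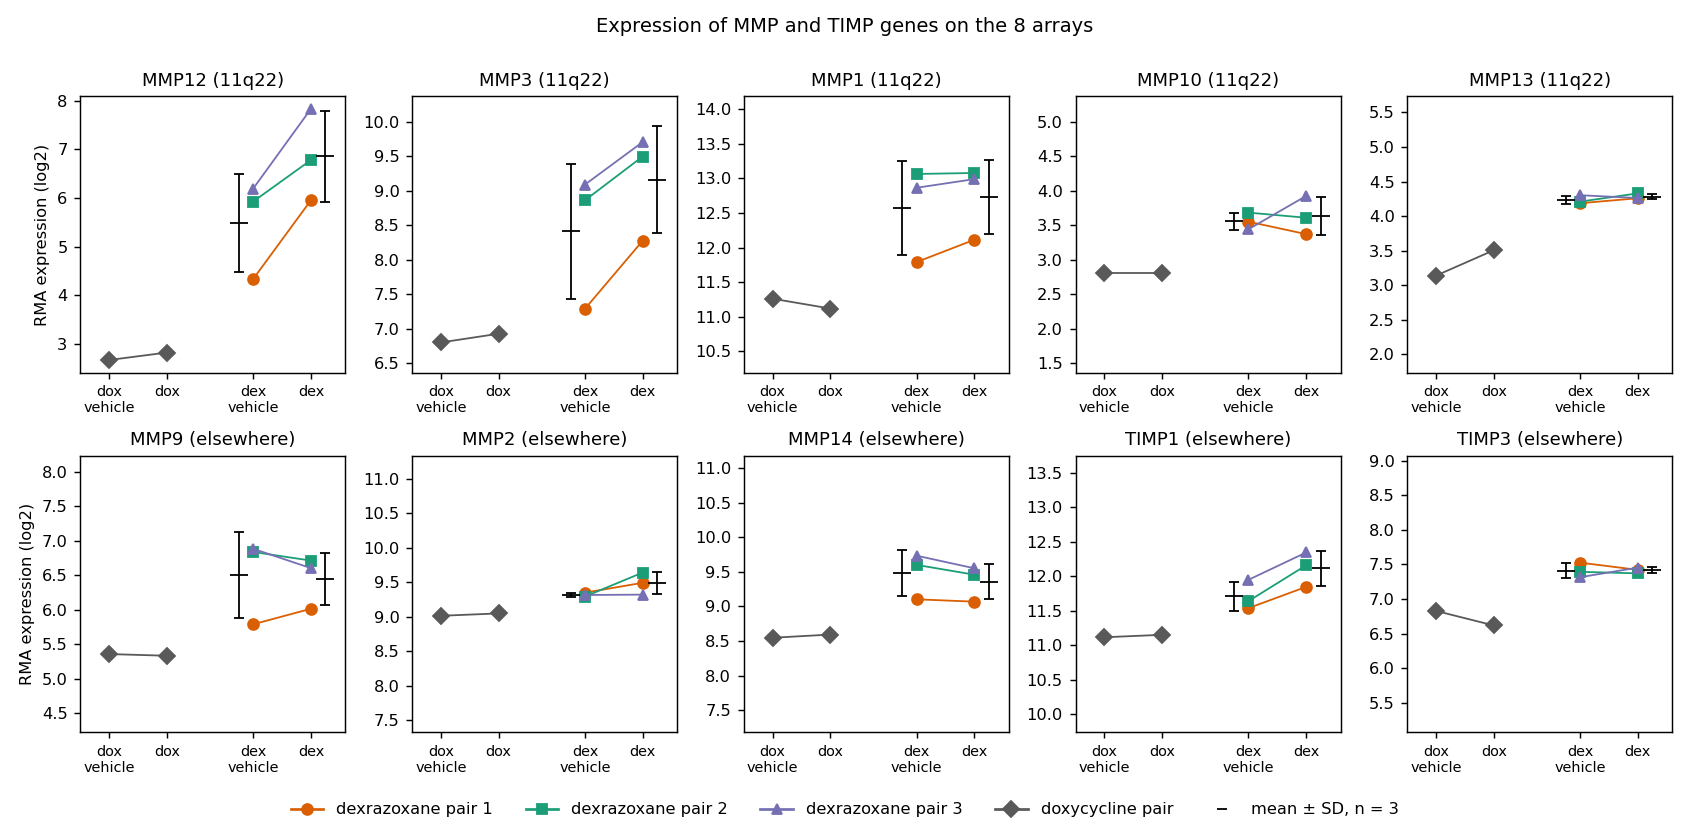
RMA log2 expression of the 10 genes on the 8 arrays, 1 panel per gene with its own axis range; lines join arrays of the same number, and black marks give the mean ± SD of 3 arrays. Among genes past the filter, the line of pair 1 runs below those of pairs 2 and 3 for MMP12, MMP3, MMP1, MMP9, MMP14 and TIMP1. By the brightest probe set, the 5 genes higher with dexrazoxane in each pair are MMP12, MMP3, TIMP1, MMP1 and MMP2. The share of all genes higher in each pair was not computed, so nothing is read from this count. The dim probe sets of MMP2 had mean differences of the other sign, so no direction is given for it. The lowest pair was 0.01 for MMP1 and 0.005 for MMP2. Levels of the doxycycline pair are not on the scale of the other 6 arrays.

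Among the members outside 11q22, TIMP1 had the largest difference from vehicle. It encodes a secreted inhibitor of most MMPs. Its values were 11.54, 11.64 and 11.95 with vehicle and 11.84, 12.16 and 12.34 with dexrazoxane. The pairs differed by 0.31, 0.52 and 0.40, a mean of 0.41 ± 0.11 (SD of 3 pairs) or 1.33-fold, with dexrazoxane array 1 just below vehicle array 3. The gene ranked 225 of 14731.

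TIMP3 encodes an inhibitor that binds to the matrix. Its brightest probe set (201148_s_at) read 7.53, 7.39 and 7.32 with vehicle and 7.42, 7.37 and 7.45 with dexrazoxane, a difference of 0.004 ± 0.12. Of its 3 other probe sets, 201149_s_at and 201147_s_at differed by -0.05 ± 0.16 and -0.03 ± 0.38. The dim 201150_s_at differed by -0.19 ± 0.19, at 4.79, 4.78 and 4.85 against 4.77, 4.39 and 4.70. Of the 18 member probe sets it alone had groups without overlap. The share over every probe set was not computed. By the brightest probe set it was 10.1% of all genes tested, and nothing is read from this count.

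The gelatinases MMP2 and MMP9 cut denatured collagen and basement membrane collagen. MMP9 read 5.79, 6.84 and 6.88 with vehicle and 6.01, 6.71 and 6.60 with dexrazoxane, so the pairs differed in sign (0.22, -0.12 and -0.28, mean -0.06 ± 0.26). MMP2 (201069_at) read 9.35, 9.29 and 9.31 with vehicle and 9.49, 9.64 and 9.32 with dexrazoxane, a difference of 0.17 ± 0.17. Its 2 dim probe sets differed the other way, by -0.12 ± 0.20 (1566678_at) and -0.10 ± 0.25 (1566677_at), so no direction is given for MMP2.

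MMP14 encodes the membrane-type protease that activates the MMP2 precursor at the cell surface. Its brightest probe set (160020_at) read 9.10, 9.60 and 9.74 with vehicle and 9.07, 9.46 and 9.55 with dexrazoxane, a difference of -0.12 ± 0.08. The 3 other probe sets differed by -0.16 ± 0.03 (202827_s_at), -0.12 ± 0.10 (202828_s_at) and -0.01 ± 0.15 (217279_x_at). The pairs of 160020_at differed by -0.03, -0.14 and -0.18 and those of 202827_s_at by -0.15, -0.19 and -0.15. Those of 202828_s_at differed by -0.04, -0.23 and -0.10, so these 3 probe sets were lower in each pair. The pairs of 217279_x_at differed in sign (0.03, 0.12 and -0.17).

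The calls depended on whether the replicate number was held as a block. Past the filter were 8 of the 10 members. MMP12 passed with a mean of 5.32 over all arrays, which includes the treated arrays where it was higher. The limma fit without the block called 0 of these 8 and 0% of the 14731 genes at a Benjamini-Hochberg adjusted p under 0.05. At an unadjusted p under 0.05 it held 765 genes (5.19%). With the replicate block limma called 3 of the 8 members, MMP12, MMP3 and TIMP1, all of them higher, beside 4.87% of all genes tested (2.42% higher and 2.44% lower). The members were chosen on this contrast, so nothing is read from that count. Without pair 1 or without pair 3 the blocked fit called 2 members, MMP12 and MMP3, and TIMP1 lost its call. Those fits called 98 and 411 of the 14731 genes. By the brightest probe set 0 of the 8 members had groups without overlap, beside 10.1% of all genes tested, and nothing is read from that count either.

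**Figure D2:**
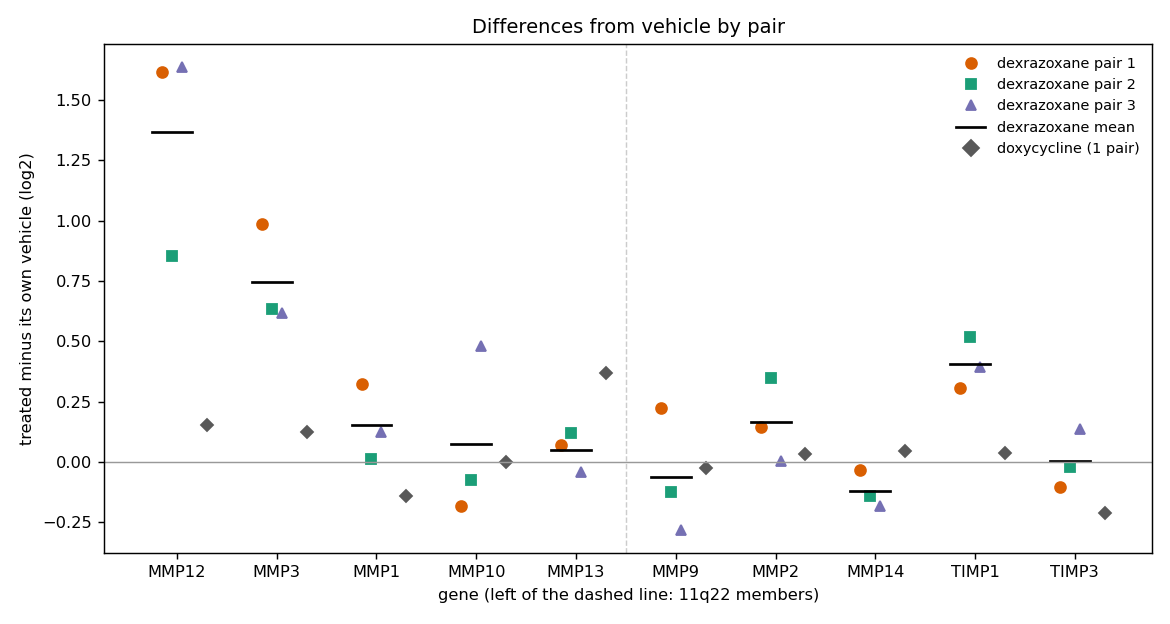
Treated minus its own vehicle, in log2 units, for each gene and pair; bars give the mean of the 3 dexrazoxane pairs and diamonds the single doxycycline pair. MMP12 (mean 1.37) and MMP3 (0.74) stand above the other members, followed by TIMP1 (0.41), while the remaining cluster genes, MMP1 and the dim MMP10 and MMP13, lie between 0.05 and 0.15.

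The 5 cluster genes had a median dexrazoxane difference of 0.15 and the 5 others a median of 0.004, beside 0.02 over all genes tested. Of the cluster genes past the filter MMP12 and MMP3, which are next to each other, were at 1.37 and 0.74 and MMP1 was at 0.15. MMP10 and MMP13 were too dim to show whether they moved with the others. The other 4 MMP genes of the cluster were below the filter and differed by 0.18 (MMP7), 0.11 (MMP27), -0.05 (MMP20) and -0.06 (MMP8).

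Past the MMP genes, 11 genes within 1 Mb of the cluster had a probe set, and 7 of them passed the filter. Their dexrazoxane differences ran from -0.18 to 0.17 with a median of -0.02. With the replicate block 0 of the 7 were called, beside 4.87% of all genes tested, and nothing is read from that count. YAP1, a transcriptional coactivator of the Hippo pathway, differed by -0.07 ± 0.08 (SD of 3 pairs), and BIRC2, an inhibitor of apoptosis, by 0.12 ± 0.27. On the other side DCUN1D5, a neddylation factor gene, differed by -0.02 ± 0.06 and DYNC2H1, a ciliary dynein gene, by -0.02 ± 0.13. TMEM123 (-0.18 ± 0.11), its divergent transcript TMEM123-DT (0.14 ± 0.21) and the growth factor gene PDGFD (0.17 ± 0.18) complete the 7.

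**Figure D3:**
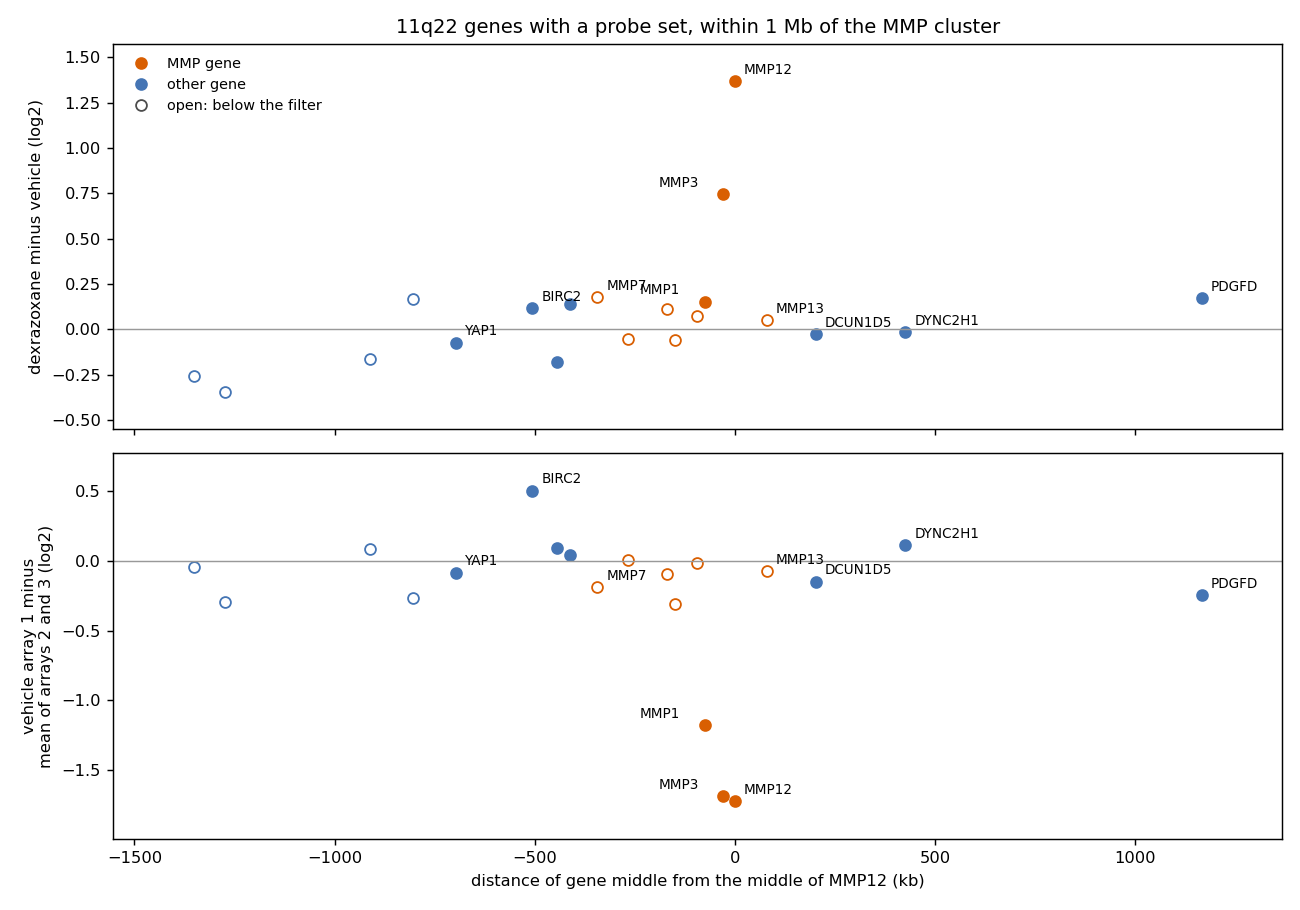
Genes of 11q22 by the distance of their middle from that of MMP12 in kb; the upper panel shows the mean dexrazoxane difference and the lower panel the log2 offset of vehicle array 1 from the mean of vehicle arrays 2 and 3. MMP12 and MMP3 stand out above, and with MMP1 they stand out below (-1.72, -1.68 and -1.18), while the 7 flanking genes past the filter run from -0.24 to 0.50.

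For MMP12, MMP3, MMP1 and MMP9 the gap between vehicle arrays was larger than the mean dexrazoxane difference. Vehicle array 1 minus the mean of vehicle arrays 2 and 3, its offset, was -1.72 for MMP12, -1.68 for MMP3, -1.18 for MMP1 and -1.07 for MMP9, so array 1 was 3.30-, 3.22-, 2.26- and 2.10-fold lower. Among the 14731 genes these were the 17th, 18th, 48th and 65th lowest offsets. MMP14 had an offset of -0.56 and TIMP1 of -0.26, whereas MMP2 and TIMP3 had 0.04 and 0.17, and the dim MMP10 and MMP13 had -0.01 and -0.07. Over all genes the offset had a median of 0.02 and an SD of 0.34.

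On the dexrazoxane arrays array 1 was low for the same genes. Its offset was -1.35 for MMP12, -1.33 for MMP3, -0.92 for MMP1, -0.64 for MMP9, -0.44 for MMP14 and -0.41 for TIMP1. MMP2 and TIMP3 had 0.01 each, MMP10 -0.40 and MMP13 -0.04. The 4 MMP14 probe sets had offsets of -0.56 to -0.35 with vehicle and of -0.47 to -0.29 with dexrazoxane. Leaving out the arrays numbered 1 left mean dexrazoxane differences of 1.24 for MMP12, 0.62 for MMP3 and 0.46 for TIMP1. The ACTB control signal at the 3′ end minus that at the 5′ end, a gauge of RNA integrity, was 0.11 and 0.10 on the arrays numbered 1 and -0.04 to 0.08 on the 4 others. The same measure for GAPDH did not set them apart, at -0.07 and -0.06 against -0.10 to -0.06 on the 4 others. The part of RNA integrity in the offsets was not tested.

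**Figure D4:**
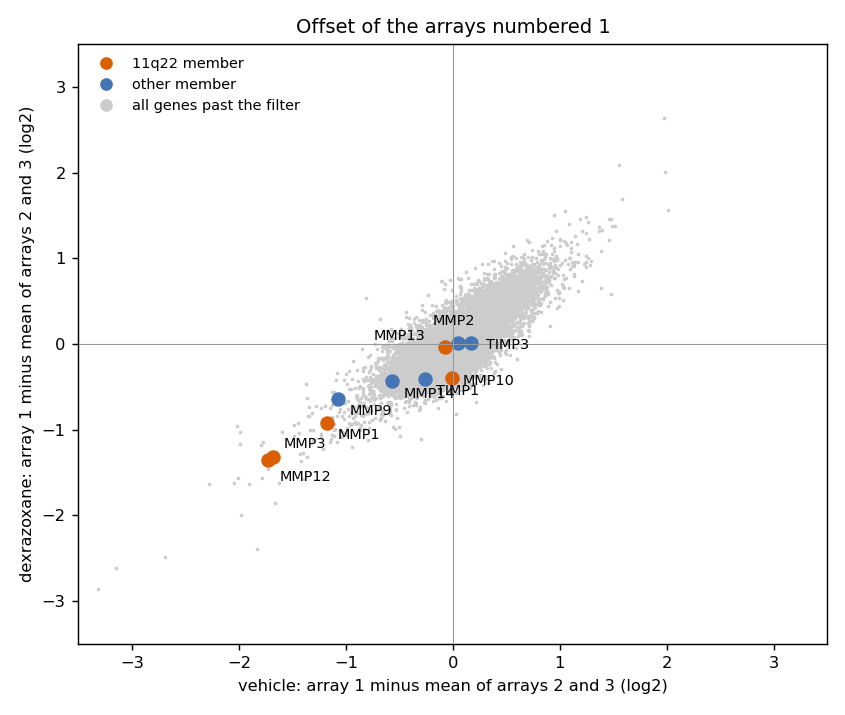
Offset of array 1 from the mean of arrays 2 and 3, in log2 units, with vehicle on the horizontal and dexrazoxane on the vertical axis; grey points are the 14731 genes past the filter. MMP12, MMP3, MMP1 and MMP9 lie far to the lower left (-1.72 to -1.07 with vehicle), and MMP2, TIMP3 and MMP13 lie near the origin.

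With doxycycline the cluster genes bright enough to be read, MMP3 and MMP1, were close to vehicle. MMP3 read 6.80 with vehicle and 6.93 with doxycycline, a difference of 0.13, and MMP1 read 11.26 and 11.12, a difference of -0.14. MMP12 read 2.67 and 2.82, at percentiles 14.4 and 17.2 of all probe sets. MMP10 read 2.81 on both arrays, and MMP13 read 3.14 and 3.50. These 3 genes lay at percentiles 14.4 to 27.8 of all probe sets on both arrays, so their values do not show a fold. The filter level of 4.83 is close to the medians of these arrays, so it does not mark dim genes on them. MMP12 passed the filter through the arrays of the dexrazoxane experiment. These include the treated arrays, where its mean was 6.86, against 5.49 with vehicle. There is 1 array a group, so no difference has an error. Over all genes the doxycycline differences had an SD of 0.15.

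Outside the cluster TIMP1 differed by 0.04 and MMP9 by -0.02 with doxycycline. MMP14 gave 0.05 by its brightest probe set and -0.11, -0.11 and -0.08 by the others, and MMP2 gave 0.03 by its brightest and -0.05 and -0.24 by its dim ones. TIMP3 gave -0.21 by its brightest probe set and 0.09, 0.32 and 0.39 by its dimmer ones. No doxycycline direction is given for these 3 genes. At 1.5-fold, the fold used here, 0 of the 8 members past the filter were counted, beside 0.129% of all genes tested. These 8 include MMP12, which was too dim in the doxycycline pair to show a fold, so nothing is read from that count. The median was 0.13 for the 5 cluster genes, 3 of them dim here, and 0.03 for the others, beside 0.02 over all genes tested. MMP12, at percentile 14.4 on the doxycycline vehicle array, stood at percentiles 28.1, 57.1 and 62.4 on the 3 dexrazoxane vehicle arrays. MMP3 stood at percentile 75.7 on the first and at 75.1, 89.6 and 90.4 on the others, so for MMP3 the doxycycline vehicle array was close to dexrazoxane vehicle array 1.

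Of 17 further MMP and TIMP genes 16 had a probe set and 9 passed the filter, with a median dexrazoxane difference of 0.06. With the replicate block 0 of the 9 were called, beside 4.87% of all genes tested, and nothing is read from that count. Among these 9 the largest differences were those of MMP16, a membrane-type MMP (-0.33 ± 0.20, SD of 3 pairs), TIMP2, the inhibitor through which MMP14 binds the MMP2 precursor (0.21 ± 0.12), and MMP17 (0.10 ± 0.06).

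Genes that activate or hold back MMPs gave 1 call among 11 tested with the replicate block, beside 4.87% of all genes tested, and the same share stands beside the counts of the lists that follow. BSG, which encodes the MMP inducer basigin, was higher (0.55 ± 0.23). PLAUR, the urokinase receptor gene, differed by -0.27 ± 0.03 and LRP1, which encodes a receptor that clears MMPs, by 0.27 ± 0.22, and the list had a median of -0.02. Of 20 matrix substrate genes the blocked fit called COL6A2 (0.35 ± 0.11) and HSPG2, the perlecan gene (0.49 ± 0.25), higher and the laminin gene LAMB1 (-0.44 ± 0.15) lower, with a list median of 0.01. LAMA4 differed by -0.36 ± 0.19 and shared the low arrays numbered 1, with offsets of -0.98 with vehicle and -0.67 with dexrazoxane.

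Among 19 AP-1, ETS and related transcription factor genes the blocked fit called 4 higher and 1 lower, beside 2.42% and 2.44% of all genes tested, with a median of -0.03. ATF3 read 7.80, 8.06 and 8.59 with vehicle and 9.20, 9.35 and 9.77 with dexrazoxane (1.29 ± 0.11), without overlap. JUND (0.44 ± 0.08), STAT3 (0.37 ± 0.04) and RELA, an NF-kB subunit gene (0.36 ± 0.10), were the others higher, and RUNX2, a regulator of MMP13 in cartilage, was lower (-0.37 ± 0.08). FOS differed by 0.43 ± 0.29.

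Of 13 cytokine and growth factor genes TGFB1 was called higher (0.53 ± 0.18), with a list median of -0.14. TGFB2 differed by -0.30 ± 0.16. CXCL8, the interleukin-8 gene, differed by -0.27 ± 0.46 and read 9.20, 10.48 and 10.63 on the vehicle arrays, an offset of -1.35 for array 1. Larger offsets in the list were -3.15 for IL1B and -2.28 for IL1A, beside a list median of -0.24. TGFB1 was offset the other way, by 1.06. These 5 lists were chosen with earlier results of the arrays known, and each holds genes that were not called. Of their called genes, BSG, COL6A2, HSPG2, LAMB1, JUND, RUNX2 and TGFB1 had groups that overlapped. ATF3, STAT3 and RELA had groups without overlap, beside 10.1% of all genes tested, and nothing is read from this. Among the marker lists the blocked fit called COL6A2 of 12 mesenchymal genes, CSF1R of 4 macrophage and leukocyte genes (lower, -0.42 ± 0.18), and 0 of 2 epithelial and 0 of 3 endothelial genes; their part in the MMP differences was not tested.

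Genes with the most similar pattern were ranked by Pearson correlation with a member over the 6 dexrazoxane and dexrazoxane vehicle arrays, as a description in which the arrays numbered 1 weigh heavily. For MMP12 they were GABARAPL1, PHYH, NPRL2, AKAP3 and POLD4 (0.986 to 0.992), whose offsets of vehicle array 1 ran from -0.95 to -0.39. For MMP3 they were ISCU, RTCA, PNRC1, CCNDBP1 and ACTA2 (0.991 to 0.998). For MMP1 they were ZNF575, CTSLP8, RTP3, GFRA2 and SERPINA1 (0.992 to 0.997). Of the other members MMP3 came 153rd and TIMP1 196th of 14730 genes by likeness to MMP12, and MMP9 came 155th by likeness to MMP1.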

How the data were processed

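RMA log2 values per probe set were deposited (RMA per the submitters' processing notes; joint normalization of the 8 arrays: not given in the sources used here). Probe sets were named from the platform annotation, with symbols updated through a RefSeq table (GRCh38.p14). Those with 1 symbol (41097 of 54675) were used, and each gene was represented by its brightest probe set (mean of the 8 arrays). Genes with a mean at or above the 40th percentile of all probe sets (4.83) were tested.

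Dexrazoxane was compared with vehicle by limma 3.58.1 in R 4.3.3 (lmFit, eBayes, two-sided, Benjamini-Hochberg over 14731 genes), without and with the replicate number as a block; the code was tested on simulated data. Deviations from group means correlated at 0.823, 0.574 and 0.716 between same-numbered arrays. Between arrays of other numbers they ran from -0.629 to 0.181, and the highest was vehicle 2 with dexrazoxane 3. Vehicle 3 with dexrazoxane 2 gave -0.013. Same-numbered arrays were treated as pairs on this check in the same data. The number of arrays limits the precision. The doxycycline pair was not tested.

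Members, lists and alternatives were chosen with earlier results of these data known. Named genes are the members, up to 3 genes per list with the largest dexrazoxane difference, the called genes of each list (added after their values were seen), the other MMP genes of 11q22, flanking genes past the filter within 1 Mb, and the 5 closest patterns to MMP12, MMP3 and MMP1. IL1B and IL1A were also named, for their offsets, after their values were seen.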

Additional observations from a re-analysis of the deposited data

Results flagged for a closer look

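By the brightest probe set, MMP1 and MMP14 had doxycycline differences opposite in sign to all 3 of their dexrazoxane pairs. Both were smaller than the SD of 0.15 of the doxycycline differences over all genes. No doxycycline direction is given for MMP14, whose probe sets differed in sign. For MMP1 the doxycycline difference was -0.14 and the pairs were 0.32, 0.01 and 0.12. For MMP14 it was 0.046 (160020_at) and the pairs were -0.03, -0.14 and -0.18, while the 3 other MMP14 probe sets gave -0.11, -0.11 and -0.08 with doxycycline. With 1 doxycycline array a group the difference between the treatments was not tested.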

How the results depend on the processing

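Without the block limma called 0 members under every alternative tried, beside 0 or 1 of all genes or probe sets tested. With the replicate block it called 3, also with no filter, the mean of probe sets, median centring, renewed quantile normalization, and trended robust variance. Over all genes the main blocked fit called 717 of 14731. The totals were 425 of 19775 with no filter and 687 of 13369 with the mean of probe sets. Of 14731 genes 737 were called with median centring, 585 with quantile normalization and 1844 with trended robust variance. The totals differ widely, so nothing is read from an unchanged count of members. The blocked fit called 2 members with the 60th percentile filter, which removes MMP12, beside 1065 of 11096 genes. With every probe set on its own it called 2, beside 153 of 41097 probe sets, and TIMP1 lost its call. The blocked fits that also changed the filter, probe sets, scaling or variance were added after seeing the data. Leaving out 1 replicate number gave 2 to 3 called members with the block. Without replicates 1, 2 and 3 in turn the blocked fit called 98, 830 and 411 of 14731 genes. The cluster median of 0.15 became 0.74, and its distance to the other members 0.74, when the members below the filter were left out, because that keeps MMP12, MMP3 and MMP1. Of 60 dexrazoxane values of single members under alternatives 59 moved by less than the SD of the pairs. Leaving out 1 of 3 pairs cannot move a mean by that SD. A member with 1 probe set keeps its value under the mean of probe sets. Much of that count was therefore fixed in advance, and nothing is read from it. Of the 60 values 6 changed sign, none of them of MMP12, MMP3 or TIMP1. MMP2 went to -0.02 with the mean of its probe sets. Of 30 doxycycline values 29 moved by less than the SD over all genes, a count to which members with 1 probe set add unchanged values. TIMP3 went to 0.15 with the mean of its probe sets. With that mean MMP2 went to -0.09, MMP14 to -0.06 and the median of the members outside the cluster to -0.02; the other 2 of 5 doxycycline values with another sign were of MMP10, which lay at 0.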
